A study of Homo sapiens with 18 samples.

Results

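UM-UC-3 cells transfected with siACAT1-1, one of the siRNAs against ACAT1, were compared with UM-UC-3 cells transfected with the negative control siNC. The comparison used 6 of the 18 RNA-seq libraries of the series, 3 libraries of each group, and paired them by the replicate number in their titles. It covered the 20144 of 39496 listed genes that passed the filter on low counts, of which 19463 had at least 10 counts in total in these 6 libraries and 197 had none.

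UM-UC-3 is an established human bladder cancer cell line of transitional cell origin. The series used UM-UC-3 and T24, another bladder cancer line, each with siNC, siACAT1-1 or siACAT1-2, an siRNA of another sequence, and the submitters describe 3 independent experiments per group. The siNC cells are labelled WT and the siACAT1-1 cells carry the label of an ACAT1 knockdown, with no dose or time of transfection given. The comparison asks what the loss of the ACAT1 transcript did to the other transcripts of these cells, and 1 siRNA in 1 line limits it as a model of ACAT1 loss.

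ACAT1 is a mitochondrial thiolase. It joins or splits acetyl-CoA and acetoacetyl-CoA, which places it at the end of isoleucine breakdown, in the making and the use of ketone bodies, and next to fatty acid oxidation. It has also been described as an acetyltransferase of other proteins, and a link to tumour growth was the question of the study.

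ACAT1 mRNA was lost in every siACAT1-1 library. Its level was 47.4, 46.5 and 44.1 RPKM (reads per kilobase of gene length, scaled to the library total) in siNC replicates 1, 2 and 3, and 2.25, 3.59 and 3.29 RPKM in the siACAT1-1 libraries of the same numbers. The groups did not overlap, and the siACAT1-1 level fitted to 6.5% of siNC (log2 fold change −3.94, SE 0.16, adjusted p = 4.2e-12). ACAT1 lies on chromosome 11 at 108121516 to 108147776 (plus strand, GRCh38), and its exons share 163 bases with RP11-144G7.2, a transcript of the opposite strand. RP11-144G7.2 fell as well, from 18.2, 18.8 and 17.3 RPKM to 3.97, 3.92 and 3.87 RPKM (log2 fold change −2.20, SE 0.20, adjusted p = 6.3e-06). Whether reads were counted by strand is not given in the sources used here, so its own level cannot be told apart from that of the transcripts it overlaps, which include CUL5 over 46.8% of its exon length.

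With ACAT1, 617 genes passed the test at an adjusted p under 0.05, which is 3.06% of the genes tested. Of these, 395 were higher with siACAT1-1 (1.96%) and 222 were lower (1.1%). The changes were small: the median log2 fold change was 0.76 among the higher and −0.65 among the lower genes, 130 and 31 of them changed at least 2-fold, and the median over all genes tested was −0.01. Of the higher genes 391 had the same sign in all 3 pairs, as did all 222 lower genes, while 41.1% of all genes tested had. The calls came from a test on these same pairs, so such agreement is largely required for a call and is no separate support. The replicates spread widely beside these changes. Every siACAT1-1 library stood above every siNC library in 202 of the 395 higher genes (5.84% of all genes tested) and below in 162 of the 222 lower genes (6.86%).

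The calls depended on the pairing. In the 6 libraries the replicate number accounted for 55.5% of the variance of log2 CPM and the siRNA for 21.7%. The replicate number has more levels than the siRNA and so takes a larger share even of random variation, and the shares do not compare directly. The first principal component, with 40.7% of the variance, separated replicate 3 from replicate 2 rather than the groups. Without the replicate number as a block, 2 genes were called (0.00993%), ACAT1 and RP11-144G7.2, and 380 of the 617 genes had an unadjusted p under 0.05. With the block but without all UM-UC-3 libraries of replicate 1 the count was 97, without replicate 2 it was 551, and without replicate 3 it was 14. With single libraries left out, the count fell to 168 without siNC replicate 1, 35 without siNC replicate 3, 55 without siACAT1-1 replicate 1 and 69 without siACAT1-1 replicate 3, while it was 600 without siNC replicate 2 and 739 without siACAT1-1 replicate 2. In these 9 refits, 14 of the 617 genes were called every time, 9 of them higher and 5 lower, and the text gives the number of refits in which a leading gene was called.

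**Figure D1:**
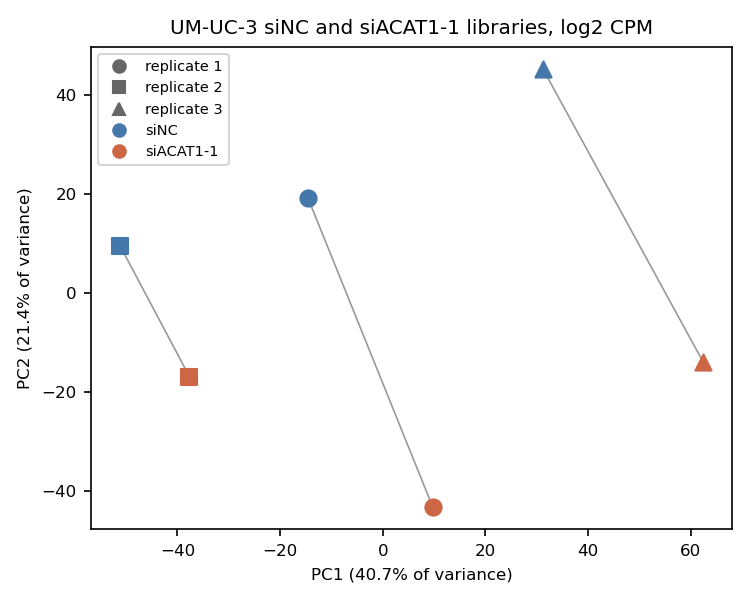
Positions of the 6 UM-UC-3 libraries on the first and second principal components of log2 CPM, with the share of variance on each axis; colour marks siNC and siACAT1-1, shape marks the replicate number and a grey line joins each pair. PC1 (40.7% of the variance) runs from the replicate 2 pair on the left to the replicate 3 pair on the right, and on PC2 each siACAT1-1 library lies below the siNC library of its number.

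**Figure D2:**
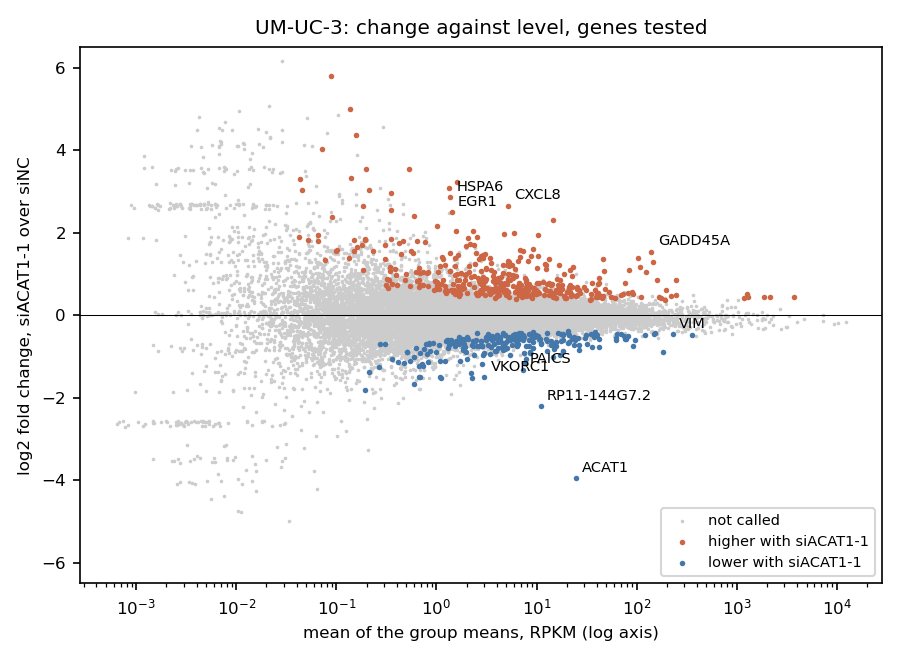
Log2 fold change of siACAT1-1 over siNC (y axis) against the mean of the group means in RPKM (x axis, log scale), 1 point per gene tested with a level above 0; red points are the 395 higher and blue points the 222 lower genes. ACAT1 at −3.94 and RP11-144G7.2 at −2.20 lie apart from the other genes of their level.

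The 5 lower genes called in all 9 refits were ACAT1, RP11-144G7.2, PAICS, PDGFA and MKNK2. PAICS, a bifunctional enzyme of purine synthesis (chromosome 4, 56435741 to 56464579), was at 10.9, 12.2 and 8.12 RPKM in siNC and at 3.66, 6.13 and 3.01 RPKM with siACAT1-1. The groups did not overlap, and replicate 2 was the highest library of each (log2 fold change −1.32, SE 0.16, adjusted p = 0.00027). PDGFA, a platelet-derived growth factor chain, was at 1.19, 1.57 and 1.97 RPKM and then at 0.222, 0.652 and 0.874 RPKM (log2 fold change −1.49, SE 0.22, adjusted p = 0.0011). MKNK2, a kinase downstream of ERK and p38 that phosphorylates the translation factor eIF4E, was at 4.20, 3.00 and 6.40 RPKM and then at 2.05, 1.59 and 3.44 RPKM. Its groups overlapped, since replicate 3 was high in both, and each pair fell by a similar size (−1.08, −0.89 and −0.87 on the log2 scale, adjusted p = 0.00045).

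CNOT8 and VKORC1 were called in 8 of the 9 refits. CNOT8, a deadenylase of the CCR4-NOT complex that shortens mRNA tails, had tight replicates, with 13.1, 14.3 and 13.2 RPKM in siNC and 8.14, 8.93 and 8.29 RPKM with siACAT1-1 (log2 fold change −0.68, SE 0.10, adjusted p = 0.0014). VKORC1, the vitamin K epoxide reductase that is the target of warfarin, was at 4.67, 4.20 and 4.48 RPKM and then at 1.36, 1.99 and 1.38 RPKM (log2 fold change −1.51, SE 0.23, adjusted p = 0.0016). VKORC1 shares 58.1% of its exon length with RP11-196G11.3 on the other strand, so the level of either is uncertain. The remaining genes among the 10 largest decreases were called in 1 to 4 refits. They were GLTPD2, a protein with a glycolipid transfer domain (log2 fold change −1.51), GPC4, a cell surface heparan sulfate proteoglycan (−1.23), WISP2, a secreted CCN family protein (−1.18), TRIM6, a ubiquitin ligase (−1.18), AZIN2, an antizyme inhibitor of polyamine metabolism (−1.14), and SNX15, a sorting nexin (−1.12). Of these 6, siACAT1-1 and siNC overlapped in AZIN2 only, and TRIM6 and SNX15 share exons with a read-through gene of the same strand.

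**Figure D3:**
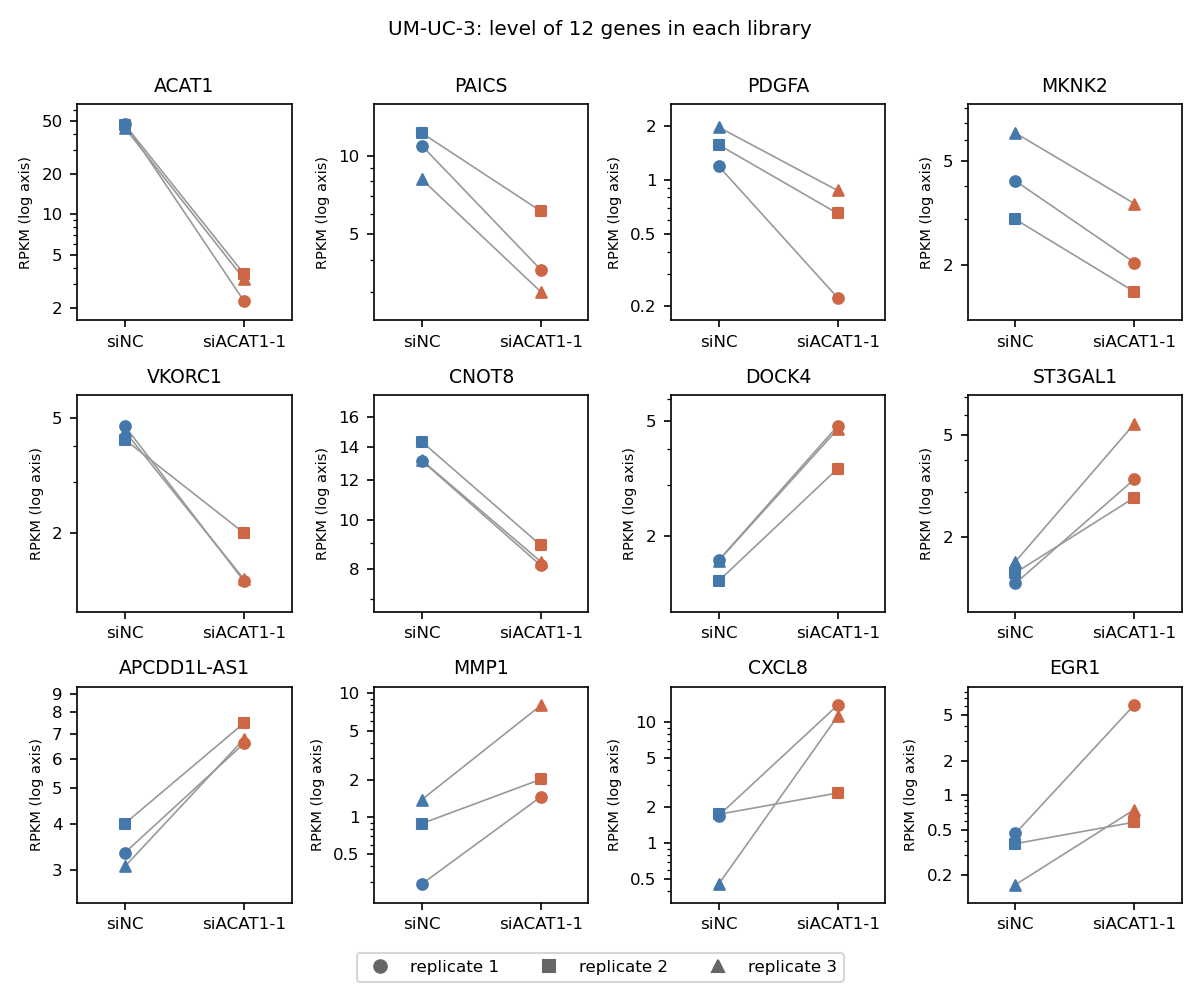
RPKM (log axis) of 12 genes in each UM-UC-3 library with siNC (blue) and siACAT1-1 (red); shapes mark the replicate number and a line joins the libraries of 1 number, with no mean or error bar drawn. ACAT1 falls from 44.1 to 47.4 RPKM in siNC to 2.25 to 3.59 RPKM, DOCK4 rises alike in every pair, and EGR1 reaches 6.16 RPKM in 1 siACAT1-1 library and 0.581 and 0.749 RPKM in the others.

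DOCK4, APCDD1L-AS1, MMP1 and ST3GAL1 were among the higher genes with the smallest p. DOCK4, an exchange factor that activates the GTPase Rac, was at 1.65, 1.4 and 1.64 RPKM in siNC and at 4.82, 3.43 and 4.70 RPKM with siACAT1-1. No library of one group reached the other (log2 fold change 1.45, SE 0.17, adjusted p = 0.00014). ST3GAL1, a sialyltransferase of O-glycans, rose from 1.31, 1.44 and 1.59 RPKM to 3.35, 2.84 and 5.53 RPKM (log2 fold change 1.36, SE 0.18, adjusted p = 0.00049). APCDD1L-AS1, a long non-coding RNA, rose from 3.33, 4 and 3.06 RPKM to 6.59, 7.49 and 6.78 RPKM (log2 fold change 1.01, SE 0.12, adjusted p = 0.0002). DOCK4, ST3GAL1 and APCDD1L-AS1 were called in all 9 refits, and so were, named here after their values were seen, NRIP3 (log2 fold change 1.21), NRP1, a receptor for semaphorins and VEGF (1.12), SERPINB8, a protease inhibitor (0.98), GLIPR1 (0.85) and IGF2R, the receptor that carries lysosomal enzymes (0.79).

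The largest increases were less even across the pairs. MMP1, the interstitial collagenase, was at 0.288, 0.886 and 1.38 RPKM in siNC and at 1.46, 2.02 and 7.98 RPKM with siACAT1-1 (log2 fold change 2.04, SE 0.26, adjusted p = 0.00034, called in 8 of 9 refits). WTAPP1, a pseudogene transcript that shares exon bases with MMP1 on the other strand, moved by 2.16. CXCL8, the neutrophil-attracting chemokine interleukin 8, was at 1.68, 1.73 and 0.456 RPKM and then at 13.8, 2.59 and 11.1 RPKM. The groups did not overlap, but pair 2 rose by 0.60 and pairs 1 and 3 by 2.96 and 4.54 on the log2 scale (log2 fold change 2.66, SE 0.50, adjusted p = 0.0074, called in 4 of 9 refits). ANKRD1, a cardiac ankyrin repeat protein and common reporter gene of YAP, ranged from 1.17 to 8.63 RPKM in siNC and from 5.35 to 53.4 RPKM with siACAT1-1 (log2 fold change 2.30). BCL2A1, a BCL2 family member that opposes apoptosis, and ANGPTL4, an inhibitor of lipoprotein lipase, rose by 1.98 and 1.96. HSPA6, an HSP70 that is silent until heat shock, was carried by 1 pair: its counts were 2, 10 and 42 in siNC and 4, 26 and 501 with siACAT1-1. RFPL4A and OR5E1P had, at 3.09 and 3.22, the largest changes among genes with a group mean of at least 1 RPKM, and each was called in 5 of 9 refits. RFPL4A belongs to a family of near-identical copies whose reads the counting could have split. OR5E1P, a pseudogene, had counts of 10, 0 and 16 in siNC and of 69, 8 and 160 with siACAT1-1, and its groups overlapped.

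The ERK pathway carries growth signals to the nucleus. Its readout includes immediate early transcription factors, which need no new protein to be switched on, and the DUSP phosphatases and SPRY and SPRED proteins that shut the pathway off again. Of 29 tested ERK output and immediate early genes, 14 rose with siACAT1-1 and 0 fell, beside 1.96% and 1.1% of all genes. The list's median log2 fold change was 0.64 beside −0.01 over all genes tested. Whether ERK activity changed was not tested. This list, like the others below, was written with earlier results of these data known, so these shares are not independent evidence. All 14 were above 0 in each of the 3 pairs, on which the calls themselves rest. The list lay lower in pair 2, where its median was 0.32 against 0.97 and 0.72 in pairs 1 and 3. Of the 15 uncalled members 14 also had a log2 fold change above 0. The list's median was 0.14 with siACAT1-2 in UM-UC-3, over the same siNC libraries, and 0.20 with siACAT1-1 in T24. In T24, 4 members were called higher and 1 lower with siACAT1-1, beside 6.59% and 7.31% of all genes.

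Only EGR1, FOSB, DUSP5 and ATF3 were set by the rule for named genes, and the other members given here were chosen after their values were seen. Among the transcription factors, JUN, a subunit of AP-1, was at 108, 67.2 and 71.3 RPKM in siNC and at 269, 119 and 236 RPKM with siACAT1-1. The groups did not overlap, and JUN had the highest level of the called members (log2 fold change 1.29, adjusted p = 0.0011, called in 8 of 9 refits). EGR1, a zinc finger factor, had the largest change of the list: it went from 0.463, 0.377 and 0.165 RPKM to 6.16, 0.581 and 0.749 RPKM (log2 fold change 2.5, SE 0.54, adjusted p = 0.018). EGR1 was high in replicate 1 of siACAT1-1, and without that library its log2 fold change was 0.96. FOSB stayed at or under 0.37 RPKM (1.69), ATF3 rose in pairs 1 and 3 from 4.46 and 6.07 to 19.8 and 23.4 RPKM while pair 2 stood at 0.903 and 0.968 RPKM (1.61), and JUNB, ETV5 and IER2 had log2 fold changes of 0.77, 0.99 and 0.61. FOS itself was at 0.503, 0.731 and 0.4 RPKM in siNC and at 1.53, 1.23 and 0.664 RPKM with siACAT1-1 and did not pass the test (1.05, adjusted p = 0.062).

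Of the feedback inhibitors, 6 were called and 3 were not: DUSP4 (log2 fold change 0.16, adjusted p = 0.69), SPRY1 (0.74, adjusted p = 0.55) and SPRED1 (0.59, adjusted p = 0.067). DUSP1 and DUSP6, phosphatases that dephosphorylate MAP kinases, went from 26, 31.1 and 19.4 to 79.6, 45.6 and 75.4 RPKM and from 3.15, 1.70 and 4.14 to 9.32, 3.11 and 10.3 RPKM (log2 fold changes 1.35 and 1.28). DUSP5, the nuclear ERK phosphatase, had a log2 fold change of 1.44. SPRY4, which blocks signalling from receptor tyrosine kinases, went from 4.02, 4.14 and 3.30 RPKM to 10, 6.54 and 8.52 RPKM with no overlap (1.11, adjusted p = 0.0014). SPRED2 and SPRY2, with the same kind of role, had log2 fold changes of 0.60 and 0.58, and PHLDA1 one of 1.1. The number of called members fell to 6 without replicate 1, was 12 without replicate 2 and fell to 0 without replicate 3, and it was 0 without the block. It was 7 without siNC replicate 1, 2 without siNC replicate 3, 3 without siACAT1-1 replicate 1 and 5 without siACAT1-1 replicate 3. The list's median stayed between 0.57 and 0.91 in the refits.

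**Figure D4:**
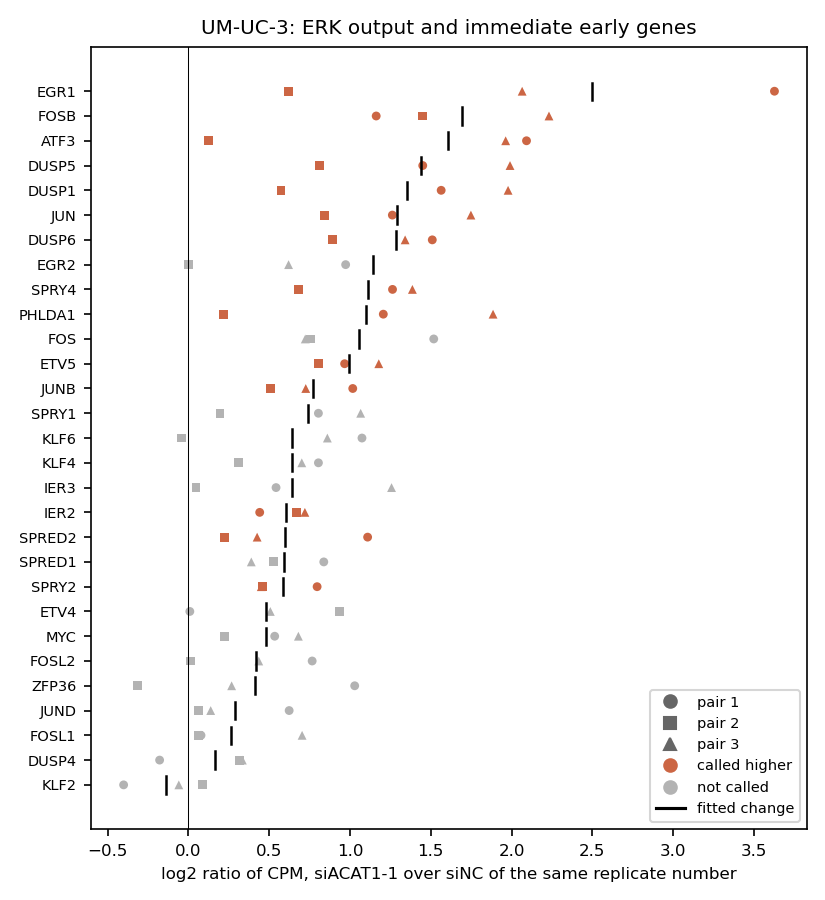
Log2 ratio of CPM of siACAT1-1 over siNC of the same replicate number (x axis) for the 29 tested ERK output and immediate early genes (y axis, ordered by the fitted change); shapes mark the pairs, red the 14 called genes, grey the others and black bars the fitted log2 fold change. Squares, pair 2, lie nearest 0 for most genes, and EGR1 has the widest spread, from 0.62 to 3.63.

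Immediate early genes are commonly switched on through short control sequences close before their starts, so the windows of the called members that hold one are shown for reference. Promoters of RefSeq (GRCh38.p14, from 250 bases before to 50 bases after the start) were searched on both strands for the CRE motif TGACGTCA, the AP-1 motif TGANTCA and the CArG box bound by serum response factor. The table held promoters of 12 of the 14 called genes. A CArG box was found in 1 of the 12, EGR1, and in 1.29% of all 35116 promoters, a CRE in 1 of the 12, DUSP1, and in 1.85% of all promoters, and the AP-1 motif in 0 of the 12 and in 7.71% of all promoters. A match is a run of letters and not a measured site. The windows of 30 bases, read 5′ to 3′ on the strand of the gene with the motif in capitals, were as follows.
EGR1, CArG box, chr5:138465364-138465393: gccggtcctgCCATATTAGGgcttcctgct
EGR1, CArG box, chr5:138465386-138465415: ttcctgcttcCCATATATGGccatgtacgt
DUSP1, CRE, chr5:172771302-172771331 (minus strand): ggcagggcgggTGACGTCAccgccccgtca

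Fewer members were called in the other signalling and surface groups. Of 31 tested inflammatory cytokines and NF-kB targets, 4 rose and 0 fell (median log2 fold change 0.44): CXCL8 (above), the chemokine CXCL2 (1.39), the cytokine LIF (1.31) and the ubiquitin ligase BIRC3 (1.24). LIF went from 3.26, 2.25 and 4.93 RPKM to 8.31, 3.93 and 16.4 RPKM. Of 29 p53 targets, 4 rose and 0 fell (median 0.28): the stress protein GADD45A (1.54), the death receptor TNFRSF10B (0.91), BTG1, which restrains proliferation (0.89), and the CDK inhibitor CDKN1A (0.87). Over the 9 refits the inflammatory list had 0 to 5 higher calls and a median of 0.29 to 0.72, and the p53 list 0 to 7 higher calls and a median of 0.13 to 0.41. The p53 list had 0 calls without replicate 3, without siNC replicate 3, without siACAT1-1 replicate 3 and without siACAT1-1 replicate 1, where its median was lowest, and the inflammatory list 0 without replicate 3 and without siNC replicate 3. Of the 92 called named genes 28 stayed called without replicate 1, 65 without replicate 2 and 9 without replicate 3.

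Of 31 tested integrins and laminins, 6 rose and 0 fell (median 0.22). They included ITGA2, the collagen-binding integrin alpha 2 (0.94), LAMA1 (0.76) and LAMB3 (0.68). LAMB3, a laminin chain of epithelial basement membranes, was at 18.7, 13.5 and 24.6 RPKM and then at 26.2, 21.5 and 46.3 RPKM. Its groups overlapped, and it was called in 0 of the 9 refits. Of 40 matrix proteases and inhibitors, 5 rose and 0 fell (median 0.01), among them MMP1, ADAMTS16 (1.08), ADAMTS1 (1.03) and PLAUR, the receptor of urokinase (0.79). PLAUR rose from 29.6, 39.8 and 23.6 RPKM to 47.9, 60.8 and 50.3 RPKM without overlap (adjusted p = 0.0027, called in 7 of 9 refits). Of 29 collagens 1 rose, COL17A1 of the hemidesmosome (0.83), which is near the 1.96% of all genes, and the median was −0.01. Of 25 YAP and TEAD targets 3 rose, and of 21 TGF-beta response genes 2 rose, SMURF2 (0.60) and LTBP2 (0.67), with 0 lower in either list. Their medians were 0.30 and 0.39. NT5E, an ecto-enzyme that makes adenosine, was among the YAP list's called members (0.44) and was called in 0 of the 9 refits.

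Stress and storage genes gave small counts. Of 36 glycolysis and hypoxia response genes, 3 rose: NDRG1 (1.22), the angiogenic factor VEGFA (0.77) and the hexokinase HK2 (0.74), with 0 lower and a median of 0.07. NDRG1 rose from 9.82, 12.3 and 8.23 RPKM to 19.4, 28.6 and 22.0 RPKM. Of 27 NRF2 targets 3 rose, OSGIN1 (1.37) and the ferritin chains FTL (0.78) and FTH1 (0.61), and of 36 lysosome and autophagy genes 3 rose, SQSTM1 (0.90), NPC1 (0.63) and PSAP (0.42), with 0 lower in either list (medians 0.20 and 0.16). FTH1 shares 62.4% of its exon length with BEST1, and both ferritin genes have many processed copies. Of 16 heat shock genes 3 rose, HSPA1B (1.07), HSPA1A (0.95) and BAG3 (0.47), and the first 2 of these are near-identical copies whose reads cannot be told apart. PSAP and BAG3 were called in 0 of the 9 refits. Of 47 interferon response genes 2 rose, OASL (1.59) and DDX60L (0.46), with a median of 0.13, beside 1.96% of all genes. OASL stayed at or under 0.210 RPKM, and both were called in 0 of the 9 refits.

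Among the enzymes closest to ACAT1, few passed the test. Of 7 thiolases only ACAT1 passed, and 4 had an unadjusted p under 0.05, beside 18.5% of all genes tested. The cytosolic thiolase ACAT2 was at 17.7, 17.5 and 12.8 RPKM in siNC and at 17.3, 16.8 and 8.97 RPKM with siACAT1-1 (log2 fold change −0.20, adjusted p = 0.39), and ACAA2, the mitochondrial thiolase of fatty acid oxidation, had a log2 fold change of −0.48 (adjusted p = 0.061). In ACAA2 and in the peroxisomal thiolase ACAA1 (−0.38, adjusted p = 0.099) every siACAT1-1 library lay below every siNC library. Of 9 ketone body genes again only ACAT1 passed, and 5 had an unadjusted p under 0.05. OXCT1, the enzyme that activates acetoacetate for use, was at 10.2, 12.5 and 10.6 RPKM and then at 11.2, 10.05 and 10.1 RPKM (−0.09, adjusted p = 0.74).

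Single enzymes fell in the pathways that deliver or use acetyl-CoA, beside 1.1% of all genes tested. Of 25 genes of branched-chain amino acid breakdown, 1 fell, PCCA of propionyl-CoA carboxylase (−0.53), with a median of −0.10. Of 28 fatty acid oxidation genes 2 fell, HADH (−0.76) and ECI2 (−0.47), with a median of −0.13. HADH, the dehydrogenase that hands its product to the thiolase step, was at 3.70, 3.53 and 3.45 RPKM and then at 1.99, 2.33 and 2.01 RPKM without overlap (adjusted p = 0.015). Of 23 citrate cycle genes 2 fell, citrate synthase CS (−0.46) and the succinate dehydrogenase subunit SDHA (−0.46), and of 13 fatty acid synthesis genes 1 fell, FASN (−0.66). Among 25 cholesterol synthesis genes, 17 genes of the pyruvate dehydrogenase complex and its regulators, 13 protein-coding genes of the mitochondrial genome, 78 mitochondrial ribosomal proteins and 79 cytosolic ribosomal proteins, 0 were called in either direction by edgeR, and 4, 3, 3, 12 and 1 had an unadjusted p under 0.05, beside 18.5% of all genes. Of 80 nuclear genes of complexes I to V, pseudogenes included, 2 fell, COX6B1 (−0.58) and SDHA.

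The study followed AKT, GSK3 beta, MYC and proteins of the cell cycle and of EMT, the shift from epithelial to mesenchymal state, by immunoblot. Of 15 tested genes of those proteins, 2 rose and 2 fell. CDKN1A, which encodes p21, was at 2.65, 2.57 and 2.88 RPKM and then at 5.61, 3.03 and 6.57 RPKM, without overlap (log2 fold change 0.87, SE 0.23, adjusted p = 0.043). CDK6, a kinase of the G1 phase, was at 2.86, 3.16 and 2.80 RPKM and then at 5.31, 3.47 and 5.39 RPKM (0.65, SE 0.14, adjusted p = 0.020). E2F1, a transcription factor of S phase entry, was at 5.83, 5.99 and 1.93 RPKM and then at 3.37, 4.44 and 1.01 RPKM (−0.69, SE 0.17, adjusted p = 0.031). VIM, the mesenchymal intermediate filament vimentin, was at 249, 249 and 306 RPKM and then at 184, 208 and 193 RPKM (−0.46, SE 0.12, adjusted p = 0.045). These 4 calls lay close to the threshold and were made in 2 or 3 of the 9 refits each.

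MYC was at 39.5, 18.9 and 31.5 RPKM in siNC and at 59.3, 21.7 and 49.8 RPKM with siACAT1-1. It was higher in each pair and did not pass the test (log2 fold change 0.48, SE 0.22, adjusted p = 0.25), while it did with only the 6 libraries (adjusted p = 0.017) and without the filter on low counts (0.008), the range over the 15 alternatives being 0.008 to 0.99. The log2 fold changes of CDK2, CDK4, CCND1 and CCNE1 were −0.04, −0.11, −0.32 and −0.57, and those of CDKN1B, CDH2, SNAI1, SNAI2 and MMP9 were −0.02, −0.37, 0.30, 1.08 and −0.62, with adjusted p from 0.062 to 0.98. CDKN2A, which encodes p16, had counts of 0, 0 and 0 in siNC and of 2, 2 and 0 with siACAT1-1, so no fold is given. Of 30 genes of the AKT and GSK3 pathway 0 were called in either direction by edgeR and 10 had an unadjusted p under 0.05, beside 18.5% of all genes. AKT1 and AKT2 had log2 fold changes of −0.32 and −0.24, with adjusted p of 0.13 and 0.30, and GSK3A and GSK3B ones of 0.15 and 0.38, with adjusted p of 0.63 and 0.10. GSK3B passed with DESeq2 and the same block only (adjusted p = 0.041), and over all alternatives its adjusted p reached 0.93, without the block.

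Proliferation genes leaned lower, and so did some lists of other functions. Of the 80 genes of complexes I to V, 66 had a log2 fold change below 0 and 14 above. Of the 79 cytosolic ribosomal proteins 60 were below 0 and 19 above, and of the 23 citrate cycle genes 19 and 4. All 16 tested MYC target genes that the study plotted had a log2 fold change below 0 (median −0.31) and 1 passed, PCNA, the sliding clamp of DNA polymerase (−0.59, adjusted p = 0.042). The study chose that list on these libraries, so its direction is not independent evidence. Of 58 DNA replication genes, 3 fell and 0 rose (median −0.19): the primase subunit PRIM1 (−0.71), the ligase LIG1 (−0.67) and PCNA. PRIM1 was at 15.7, 14.4 and 10.2 RPKM and then at 11.1, 10.6 and 4.38 RPKM. Of 60 mitosis genes, 0 passed in either direction by edgeR, 14 had an unadjusted p under 0.05 (18.5% of all genes had), 51 had a log2 fold change below 0 and the median was −0.13. CDKN2C, an inhibitor of CDK4 and CDK6, fell by 0.82 on the log2 scale.

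The cells showed the keratins and vimentin of the line and few urothelial markers. KRT18 and KRT8, simple epithelial keratins, fell from 161, 127 and 138 to 108, 98.6 and 96.6 RPKM and from 45.2, 36.0 and 40.5 to 31.8, 28.7 and 27.8 RPKM without overlap (log2 fold changes −0.48 and −0.46), and their exons overlap on opposite strands. CDH1 stayed at or under 0.0326 RPKM and the uroplakins UPK1B and UPK3A were at 0 in all 6 libraries. Of 4 mesenchymal markers only VIM was called, and 3 had a log2 fold change below 0. ZEB1 went the other way without a call, from 30.8, 30.3 and 35.5 to 48.2, 30.4 and 48.8 RPKM. Of 21 tested EMT transcription factors and mesenchymal or epithelial markers, 0 rose and 1 fell, beside 1.96% and 1.1% of all genes (median −0.06). Endothelial markers summed to at most 0.113 RPKM and fibroblast markers to at most 1.87 RPKM. Of 5 immune markers only CD68, which is also a lysosomal protein, reached 1 RPKM, at 126 to 160 RPKM in siNC and 168 to 216 RPKM with siACAT1-1, and it was not called. In these bulk libraries fewer cells of a state and less RNA per cell cannot be told apart. Library totals were 28227323 to 32088180 counts in siNC and 28224125 to 30689425 with siACAT1-1, with 4.34% to 6.17% of the counts on the mitochondrial genome.

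The same siRNA was used in T24 with its own siNC libraries, so the fold changes of the genes called in UM-UC-3 could be read there in other libraries. The reading was not independent, since the T24 libraries entered the filter and the estimate of spread behind the UM-UC-3 calls. Of the 222 lower genes, 196 had a log2 fold change below 0 in T24 and 113 (50.9%) were called lower there, beside 7.31% of all genes, and 0 were called higher. The 113 genes are 7.68% of the 1472 lower calls of T24, and the median T24 log2 fold change of the 222 was −0.43. Of the 395 higher genes, 335 were above 0 in T24, 123 (31.1%) were called higher beside 6.59% of all genes, and 4 were called lower. The 123 genes are 9.27% of the 1327 higher calls of T24. With siACAT1-2 in T24, against the same T24 siNC libraries, 25 of the 222 lower genes (11.3%) were called lower beside 3.93% of all genes and 6 were called higher, and 59 of the 395 higher genes (14.9%) were called higher beside 4.55% of all genes. The medians there were −0.07 for the lower and 0.18 for the higher genes. The shared counts followed the number of UM-UC-3 calls: without replicate 3, 5 lower and 5 higher genes were shared with T24 siACAT1-1.

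Several leading lower genes had like values in T24 with the same siRNA. ACAT1 changed by −3.94 in UM-UC-3 and by −3.64 in T24, VKORC1 by −1.51 and −1.33, MKNK2 by −0.95 and −1.05, CNOT8 by −0.68 and −0.66, TRIM6 by −1.18 and −1.12 and SNX15 by −1.12 and −1.40, each called in both lines on the log2 scale. PAICS fell by 1.32 and 0.55 and PDGFA by 1.49 and 0.73. GPC4 (−1.23) and AZIN2 (−1.14) had T24 values of 0.17 and 0.16 that did not pass. The difference of the effects, UM-UC-3 minus T24, was called for 86 genes (0.427%), among them 17 of the 395 higher and 0 of the 222 lower genes, of which 71 had an unadjusted p under 0.05. Without the block 0 differences were called by edgeR and 696 genes had an unadjusted p under 0.05.

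**Figure D5:**
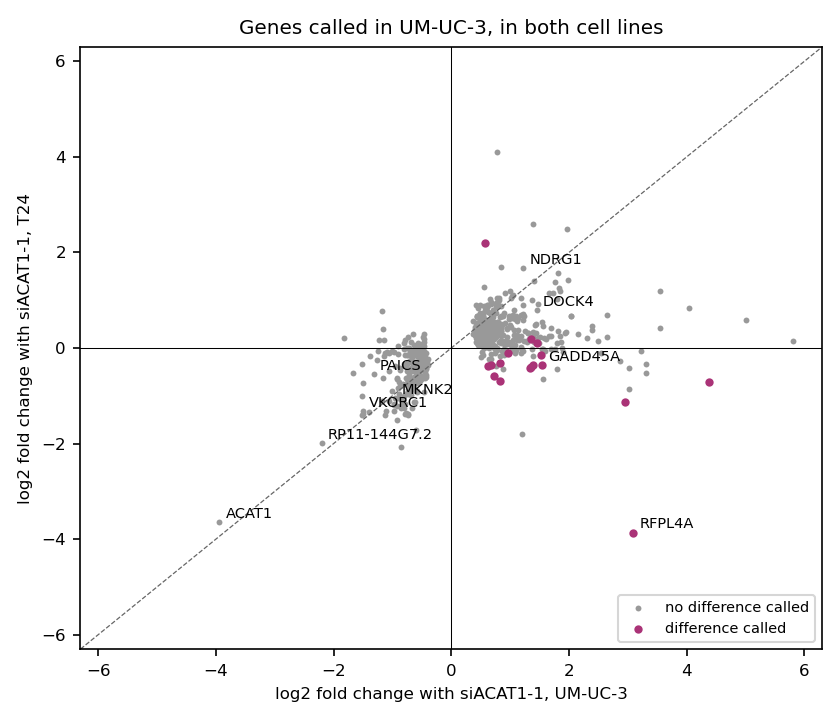
Log2 fold change with siACAT1-1 in UM-UC-3 (x axis) and in T24 (y axis) for the 617 genes called in UM-UC-3; purple marks the 17 genes whose effect was called different between the lines, and the dashed line marks equal change. ACAT1, VKORC1 and MKNK2 lie near the dashed line, while RFPL4A rose in UM-UC-3 and was at −3.86 in T24.

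The siRNAs could be compared directly within UM-UC-3, siACAT1-2 minus siACAT1-1, without siNC. This difference was called for 1642 genes (8.15%), 731 higher with siACAT1-2 and 911 higher with siACAT1-1, and for 10 genes without the block. Both siRNAs lowered ACAT1, which was a further 0.54 lower on the log2 scale with siACAT1-2 (adjusted p = 0.035), at −4.48 against siNC. The leading lower genes stood closer to siNC with siACAT1-2: its log2 fold changes over the same siNC libraries were −0.14 for VKORC1, −0.08 for CNOT8, −0.21 for MKNK2, −0.28 for PAICS and −0.43 for PDGFA. The direct differences were 1.37, 0.60, 0.74, 1.04 and 1.07, with adjusted p of 0.0016, 0.0017, 0.0014, 0.00085 and 0.0063. Among the higher genes, DOCK4 (0.24), ST3GAL1 (0.33), APCDD1L-AS1 (0.27) and MMP1 (0.60) differed between the siRNAs with adjusted p from 0.00026 to 0.0016. JUN, DUSP5 and ATF3 stood at 0.19, 0.08 and −0.43 with siACAT1-2 (adjusted p of the difference 0.0018, 0.0034 and 0.0059), while EGR1 stood at 1.65 and its difference did not pass (adjusted p = 0.32). CDK6 moved apart, with 0.65 for siACAT1-1 and −0.77 for siACAT1-2 (adjusted p = 1.3e-05). FTL (0.78 and 0.85), PLAUR (0.79 and 0.66), HSPA1B (1.07 and 1.02), PRIM1 (−0.71 and −0.72) and KRT8 (−0.46 and −0.48) passed the test against siNC with each siRNA, and their differences did not pass (adjusted p from 0.58 to 1.00). These genes were picked as alike after their values were seen, and both contrasts share the siNC libraries, which favours like values. How many of the called genes passed with both siRNAs is not given here.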

How the data were processed

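Stranded poly(A) libraries with 8-base molecular identifiers were made from total RNA and sequenced on a NovaSeq. Per the submitters' processing notes, reads were filtered with Trimmomatic 0.36, mapped to GRCh38 with STAR 2.5.3 and counted on gene exons with featureCounts of Subread 1.5.1. The deposited table of counts holds 39496 genes and 18 libraries without normalization, and the deposited RPKM values were computed by the authors from these counts, the gene length and the library total (largest relative difference on recalculation 6.4e-07). The annotation release, the strand setting and any merging of reads by identifier are not given in the sources used here. Duplicated reads that were kept would make counts look more precise than they are.

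Counts were tested with edgeR 4.0.16 in R 4.3.3 (quasi-likelihood test, TMM, filterByExpr by group, Benjamini-Hochberg adjustment over 20144 genes, called at an adjusted p under 0.05) in 1 fit of all 18 libraries, with group and replicate number within cell line as terms and 8 residual degrees of freedom. p-values use all groups' spread. Log2 CPM used a prior count of 2. Replicate numbers come from the titles. Deviations from the group means correlated at 0.17, 0.48 and 0.52 between siNC and siACAT1-1 libraries of the same number and at −0.46 to −0.01 between other numbers, so the numbers were taken to pair the libraries, as the comparison's rule asks. Deviations within a group cancel out, so the negative values follow in part from the positive ones. The titles do not say that equal numbers mark a shared experiment. Chi-square per degree of freedom between replicates was 27.6 to 121, so no library was a copy of another.

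Named genes were the 10 largest changes and 5 smallest p in each direction among called genes with 1 sign in all 3 pairs, at least 1 RPKM in a group mean and a symbol not taken from a clone or accession, and also up to 4 called members with the largest change of each of 48 gene lists, all members of the immunoblot, thiolase, ketone body and AKT lists, and ACAT1 with its overlapping transcript. Some genes that this rule names are not reported here. Members and lists were chosen with earlier results of these data known. Alternatives were no block, DESeq2 1.42.0, its size factors in edgeR, no filter, fits of 9 or 6 libraries, a 1.5-fold minimum, and leaving out replicate numbers or libraries. GC content was not examined.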

Additional observations from a re-analysis of the deposited data

Results flagged for a closer look

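The effect of siACAT1-1 differed between UM-UC-3 and T24, by edgeR's quasi-likelihood test of the difference with Benjamini-Hochberg adjustment, for 4 of the genes named here and for DUSP1, and each was higher in UM-UC-3. GADD45A differed by 1.891 (adjusted p = 0.043), with UM-UC-3 at 82.3, 34.4 and 75.1 RPKM in siNC and 307, 50.2 and 295 RPKM with siACAT1-1, and T24 at 88.6, 374 and 86.2 RPKM and then 99.9, 219 and 61.4 RPKM. ST3GAL1 differed by 1.178 (adjusted p = 0.043) and COL17A1 by 1.149 (adjusted p = 0.043). RFPL4A differed by 6.954 (adjusted p = 0.014), which rests on T24 levels of 0.112, 1.30 and 0 RPKM in siNC and 0.0714, 0 and 0 RPKM with siACAT1-1, and it belongs to a family of near-identical copies. DUSP1, named after its values were seen, differed by 1.747 (adjusted p = 0.028), its change being 1.35 for UM-UC-3 and −0.39 for T24 on the log2 scale. Without the block none of the 5 differences passed the test, since 0 were called over all genes.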

How the results depend on the processing

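The number of called genes moved with the design. The 92 called named genes kept their sign in all alternatives in which they were tested. They were picked as called on these same libraries, the leading ones also for 1 sign in all 3 pairs. A kept sign was therefore nearly fixed by the choice and is no separate support for their direction. Without the block, 2 genes were called (0 higher, 2 lower), the UM-UC-3 minus T24 difference was called for 0 genes and the siRNA difference for 10. The block result is the one reported because the numbers were taken to pair the libraries, as the comparison's rule asks. More genes were called with DESeq2 and the same block (1079, of them 677 higher and 402 lower, and 325 differences between lines), without a filter on low counts (1188, 758 and 430, and 608), with only the 9 UM-UC-3 libraries (1116, 679 and 437) and with only the 6 libraries compared (1230, 756 and 474). A 1.5-fold minimum left 142 lower genes. Leaving out replicates or single libraries gave 14 to 739 called genes, 9 to 481 higher and 5 to 258 lower, 2 to 121 differences between lines and 135 to 1609 between siRNAs. In the same refits the median of the interferon list ran from −0.016, without siNC replicate 1, to 0.24, and that of the HLA list from −0.19 to 0.00061, without siNC replicate 3. ACAT1 stayed between −4.10 and −3.70 and was called in every alternative. The cause of these shifts was not tested. The biological coefficient of variation was 0.135 with the block and 0.288 without it, and the part of depth was not tested.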

Other observations

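Of 22 transfer RNA genes of the mitochondrial genome tested, 4 were called higher and 0 lower, beside 1.96% and 1.1% of all genes. Of the 22, 12 lay above 0 and 10 below, and of the genome's 2 ribosomal RNA genes 1 was called higher. MT-TA, MT-TN, MT-TC and MT-TY, neighbouring transfer RNA genes named here after their values were seen, had log2 fold changes of 0.41, 0.45, 0.44 and 0.44, with every siACAT1-1 library above every siNC library. Neighbours may share reads, which was not tested, so these are not 4 separate results. MT-TC was at 1674, 1955 and 1874 RPKM in siNC and at 2352, 2553 and 2581 RPKM with siACAT1-1. MT-RNR2, the large ribosomal RNA, had a log2 fold change of 0.45 with overlap between the groups. MT-TA, MT-TN and MT-TY were called in 0 of the 9 refits and MT-TC and MT-RNR2 in 1.

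Of 11 genes of the MYC network, 1 passed, MXD1, which competes with MYC for its partner MAX (log2 fold change 0.76). Of 58 ribosome biogenesis genes 2 rose, WDR43 (0.56) and RRN3 (0.49), near the 1.96% of all genes, and the median was 0.06. Of 39 ATF4 and tRNA synthetase genes, ATF3 rose and ATF5 and PHGDH, the first enzyme of serine synthesis, fell (−0.59 for both).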
